A study of Mus musculus with 384 samples.

Results

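The genes described here encode 10 signalling partners of polyoma middle T, the viral oncoprotein that drives the MMTV-PyMT mouse breast tumor: the SRC-family kinases Src, Yes1 and Fyn, the adaptors Shc1, Grb2 and Gab1, the phosphoinositide 3-kinase subunits Pik3r1 and Pik3ca, the lipase Plcg1 and the kinase Akt1. They were chosen by name from 22350 protein-coding genes as partners of middle T, at a time when earlier results of these data were known. Of 50000 accessible windows of 500 bp, 97 had a centre within 50 kb of an annotated transcription start site of these genes. A further 4 windows, all in Gab1, lay inside the gene but farther from its start, and both sets were assigned to the genes. Of the assigned windows, 59 lay inside a gene, and 55 of those were also within 50 kb. No window was assigned to more than 1 of these genes. Positions are in mouse build mm9, counted from 1, and distances run from a start site to a window centre, positive in the direction of transcription.

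The windows came from Pi-ATAC, a single-cell assay in which transposase tags open chromatin of fixed cells that have also been stained for proteins. Cells of a tumor from an MMTV-PyMT mouse, collected at 3 months of age, were stained for EpCAM, an epithelial adhesion protein, and CD45, a leukocyte phosphatase, and were placed in single wells, 96 on each of 4 plates. All wells formed 1 group, all carried the transgene, and no untransformed tissue was among the samples used here. The MMTV promoter directs the oncogene to the mammary epithelium, while the stained cells also included leukocytes, and the windows were called on the cells together.

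There was 1 list of windows with positions only, without a score, a read count, a depth or a replicate. A window is therefore present or absent here, a present window cannot be ascribed to epithelial cells or to leukocytes, and no p-value was computed. Exact binomial 95% intervals cover counting error only. Promoter windows, centred within 1 kb of a start site, were found at 2 of 5 epithelial markers (Cdh1 and Elf3, but not Epcam, Krt8 or Krt18) and at 4 of 5 leukocyte markers (Coro1a, Ikzf1, Laptm5 and Runx3, but not Ptprc, the gene of CD45). Of all protein-coding genes, 43.5% had one. Epcam had 9 windows within 50 kb and 2 inside the gene, and Ptprc had 4 and 3. Cdh1 is on chromosome 8 and Coro1a on chromosome 7, where larger shares of called peaks were kept (51.8% and 41.5%, against 29.1% over all chromosomes).

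Middle T has no enzyme activity of its own. It sits in membranes, binds protein phosphatase 2A (PP2A) and a SRC-family kinase, and is then phosphorylated on tyrosines that act as docking sites. SHC1 docks on one such site and brings GRB2, and through it GAB1 and the RAS exchange factor SOS. The regulatory subunit of phosphoinositide 3-kinase docks on another and leads to activation of AKT, and phospholipase C gamma docks on a further site. In mouse mammary tumors, loss of the SHC or phosphoinositide 3-kinase docking site delays tumor formation.

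The bases just before the start sites at 6 of these genes are shown first, because promoter windows were what most of the genes had in common. Each run is the strand of the gene, 5′ to 3′, and ends at the base before a start site. Capitals mark GGGCGG (the SP word), CCAAT (the NFY word) and GCGCATGCG (the NRF1 word), on either strand, so the forms of the other strand are also in capitals (CCGCCC for the SP word, then ATTGG for the NFY word and CGCATGCGC for the NRF1 word). TGACGTCA, CACGTG and CCGGAAG were searched in the same way and did not occur in these runs. The runs lay at chr10:39089370-39089569 (+ strand, Fyn), chr3:89224355-89224554 (+ strand, the second start region of Shc1), chr11:115569912-115570111 and chr11:115560849-115560990 (both − strand, the first and the second start region of Grb2), chr8:83404379-83404578 (− strand, Gab1), chr13:102538173-102538372 (− strand, Pik3r1) and chr2:160556836-160557035 (+ strand, Plcg1).
Fyn: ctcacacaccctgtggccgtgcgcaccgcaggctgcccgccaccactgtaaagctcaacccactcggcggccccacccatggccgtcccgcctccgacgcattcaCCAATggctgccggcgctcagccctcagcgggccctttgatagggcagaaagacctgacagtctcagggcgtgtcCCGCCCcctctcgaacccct
Shc1 second start region: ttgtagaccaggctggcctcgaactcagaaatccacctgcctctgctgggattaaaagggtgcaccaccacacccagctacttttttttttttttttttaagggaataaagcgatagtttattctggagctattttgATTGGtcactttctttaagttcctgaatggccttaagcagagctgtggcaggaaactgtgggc
Grb2 first start region: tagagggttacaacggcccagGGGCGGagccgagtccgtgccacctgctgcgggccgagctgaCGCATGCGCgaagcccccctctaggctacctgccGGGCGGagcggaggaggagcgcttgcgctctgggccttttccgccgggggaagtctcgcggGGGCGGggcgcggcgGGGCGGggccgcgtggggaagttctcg
Grb2 second start region: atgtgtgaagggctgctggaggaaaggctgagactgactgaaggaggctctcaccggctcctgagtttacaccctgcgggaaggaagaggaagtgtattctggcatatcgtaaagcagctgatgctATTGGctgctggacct
Gab1: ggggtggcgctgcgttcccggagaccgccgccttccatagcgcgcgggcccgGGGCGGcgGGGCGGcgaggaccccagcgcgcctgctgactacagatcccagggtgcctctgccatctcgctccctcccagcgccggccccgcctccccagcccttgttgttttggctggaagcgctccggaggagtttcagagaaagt
Pik3r1: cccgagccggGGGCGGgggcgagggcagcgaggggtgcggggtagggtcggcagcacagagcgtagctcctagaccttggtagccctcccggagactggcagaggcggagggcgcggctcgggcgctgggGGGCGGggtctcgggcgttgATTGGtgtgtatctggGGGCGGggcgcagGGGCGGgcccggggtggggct
Plcg1: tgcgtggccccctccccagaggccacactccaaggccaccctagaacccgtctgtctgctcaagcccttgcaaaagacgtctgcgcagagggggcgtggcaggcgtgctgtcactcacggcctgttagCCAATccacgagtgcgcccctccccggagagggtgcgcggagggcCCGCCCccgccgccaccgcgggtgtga

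From windows centred away from start sites, the runs shown are 6 of those that hold the AP-1 word, TGAGTCA or TGACTCA, in capitals. AP-1 is a family of FOS and JUN transcription factors that lies downstream of RAS and ERK signalling. These runs were read on the strand of the gene and lay in introns of Src (chr2:157248999-157249085, + strand), Fyn (chr10:39091189-39091275 in the first intron and chr10:39135555-39135658 in the second, + strand), Gab1 (chr8:83381781-83381867, − strand) and Pik3r1 (chr13:102521889-102521975 and chr13:102523834-102523920, − strand). The Src run itself lies within 1 kb of the start of Src-004, although its window was centred 1014 bp before that start. The second Fyn run has the word at 2 positions.
Src intron: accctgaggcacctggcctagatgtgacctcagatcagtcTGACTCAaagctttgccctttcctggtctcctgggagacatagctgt
Fyn first intron: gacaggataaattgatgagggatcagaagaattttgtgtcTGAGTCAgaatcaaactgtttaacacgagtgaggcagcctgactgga
Fyn second intron: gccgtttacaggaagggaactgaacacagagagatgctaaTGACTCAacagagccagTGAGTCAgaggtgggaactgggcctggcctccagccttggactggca
Gab1 first intron: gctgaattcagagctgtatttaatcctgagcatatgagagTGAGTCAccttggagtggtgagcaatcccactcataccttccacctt
Pik3r1 second intron, nearer the 3′ end of the gene: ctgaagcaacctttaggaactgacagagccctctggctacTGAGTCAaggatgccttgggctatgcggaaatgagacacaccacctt
Pik3r1 second intron, nearer the start: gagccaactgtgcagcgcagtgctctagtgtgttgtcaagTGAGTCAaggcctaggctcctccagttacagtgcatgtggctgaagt

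Of the 10 genes, 9 had a promoter window (90%, exact 95% interval 55.5% to 99.7%), against 43.5% of all protein-coding genes. Yes1 was the exception. All 10 had at least 1 window within 50 kb, as did 84.6% of all genes, and 9 had a window inside the gene, against 47% of all genes. The median number of windows within 50 kb was 11 for these genes and 3 for all genes, and the median number inside the gene was 4 and 0. Each of the medians of all genes was exceeded by 9 of the 10. The 50 kb reach was taken from every annotated start site, so genes with spread-out start sites were searched over more sequence. With start sites within 1 kb of each other counted together, these 10 genes had 31 start regions, and all 22350 genes had 39739. More start regions also give a gene more places for a promoter window. How far this accounts for the higher counts within 50 kb, or for the higher share with a promoter window, was not tested. With the start of the longest coding transcript alone, a run chosen after seeing the data, 7 of the 10 had a promoter window, against 39.5% of all genes. These genes were also rich in CpG at the start site of the main transcript, the longest coding one. For 9 of them, all but Shc1, the 1 kb around it fell in the upper 2 of 10 classes of CpG number, in which 69.6% and 71.7% of all genes had a promoter window. How far CpG content accounts for the higher share was not tested.

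**Figure D1:**
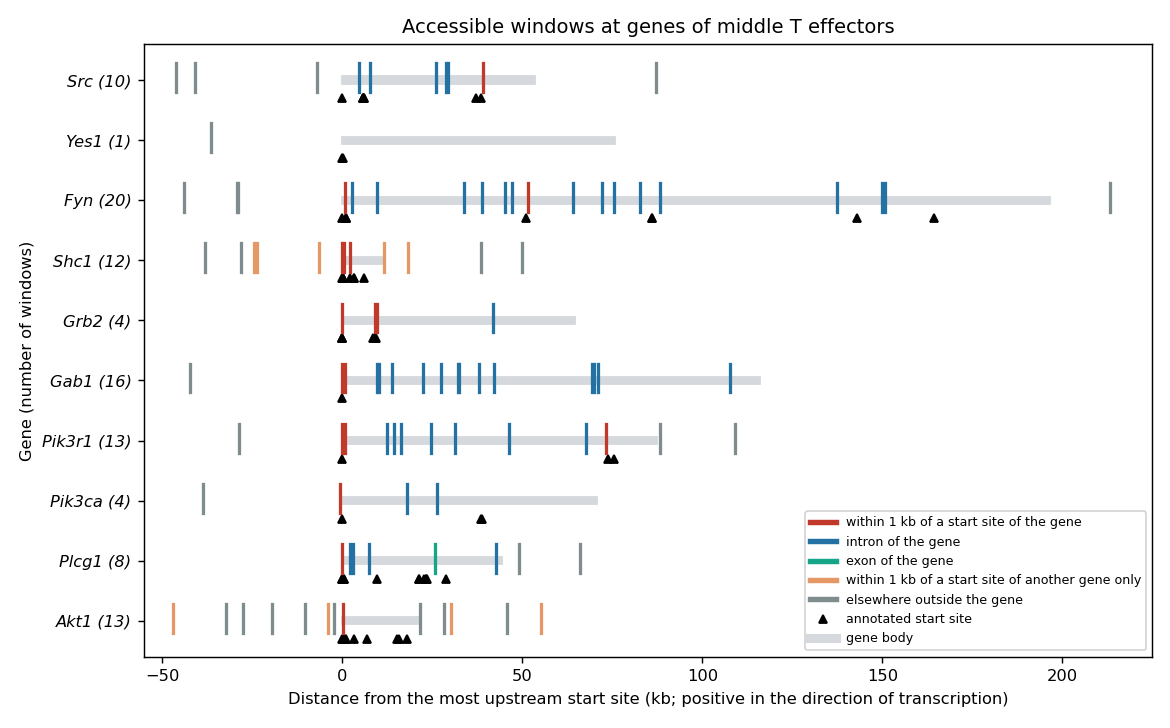
Position of the assigned windows relative to the most upstream start site of each gene (kb, positive in the direction of transcription), with gene bodies as grey bars and annotated start sites as triangles. Colors give the location of each window, of which 17 were within 1 kb of a start site of the gene, and Yes1 has a single window, upstream of the gene.

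Among the SRC-family kinases, Fyn had the most windows and Yes1 the fewest, while per length of gene Src was above Fyn (11.2 and 8.14 windows inside the gene per 100 kb). Fyn, a SRC-family kinase of many cell types including T cells, had 20 windows within 50 kb, a number that 99.6% of protein-coding genes did not exceed, and 16 of them lay inside the gene. The last of its annotated start sites is 164415 bp downstream of the first, so a long stretch was searched. Its main promoter window, chr10:39089263-39089762, was centred 58 bp before the nearest start site. That start region serves transcripts for the long forms of 534 and 537 codons. A second promoter window lay 413 bp after the start of Fyn-007, a short transcript with 36 annotated codons, and held 1 CpG. The later start region of Fyn-004 and Fyn-005, which also encode 534 codons, had its nearest window at 2157 bp and so had no promoter window. The second intron of Fyn, 60021 bp long, held 9 windows.

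Src, the cellular counterpart of the first retroviral oncogene to be identified, had 10 windows within 50 kb, 6 of them inside the gene. Its call as a gene with a promoter window rested on 1 window, chr2:157283130-157283629, which lay 558 bp after the start of Src-006. That start lies 38641 bp downstream of the most upstream one. At the start region of Src-001 and Src-201, the nearest windows were 1014 bp before its first start site (chr2:157248589-157249088, which holds the AP-1 word shown above) and 1663 bp after its last (chr2:157251542-157252041). Neither was within 1 kb. Yes1, a close relative of Src, had a single window, chr5:32876953-32877452, 36404 bp before its start. Between that window and the next one kept downstream, 211347 bp away, 9 peaks had been called but were not among the windows kept. The main starts of Yes1, Src and Fyn fell in the same class of CpG number, the highest of 10, in which 71.7% of all genes had a promoter window.

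The adaptors all had promoter windows. Shc1, which docks on the phosphorylated tyrosine of middle T, had 3. At its first start region, used by the 469-codon transcript whose length is that of the p52 form, a single called peak had 2 summits, the first 97 bp before the start, which gave chr3:89222019-89222518 and chr3:89222614-89223113. Both windows were also within 1 kb of the start of Cks1b, a cyclin-dependent kinase subunit gene, so they cannot be given to Shc1 alone. A further window, chr3:89224176-89224675, was centred 130 bp before the start of Shc1-004, a retained-intron transcript. It was 1125 bp before the start of the 579-codon transcript whose length is that of the p66 form, so the start of that form had no promoter window of its own. The Shc1 locus is dense in genes, with 7 protein-coding neighbours within 50 kb, against a median of 2 for all genes. Besides the 2 windows shared with Cks1b, 5 of its 12 windows were within 1 kb of a start site of another gene but not of Shc1. Of these, 2 were at Zbtb7b and Gm15417, and 1 each at Flad1, Pygo2 and Pbxip1.

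Grb2, the adaptor that links SHC1 to SOS, had 4 windows, and 3 of them were promoter windows. The first start region had 1 window, centred before the start (chr11:115569774-115570273). The second, with Grb2-001 starting 9063 bp downstream, had 2 windows (chr11:115560491-115560990 and chr11:115559949-115560448). Both start regions have a transcript with 651 coding bases. The windows differed in base composition, with a GC content of 67.4% at the first region and of 56.8% and 40.4% at the second. Gab1, a docking protein that recruits phosphoinositide 3-kinase and the phosphatase SHP2, had 12 windows within 50 kb and 14 inside the gene. It had a single annotated start site with windows at −46 and 832 bp. Its first intron, 79136 bp long, held 12 windows, and 4 of the 14 windows inside the gene lay more than 50 kb from the start. Gab1 is on chromosome 8, where 51.8% of called peaks were among the windows kept. The share was also high on chromosomes 7 (41.5%), 9 (50.6%) and X (46.3%), against 23.6% to 26.5% on each of the others, which carry the other 9 genes. The part of this difference in the Gab1 counts was not tested.

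The subunits of phosphoinositide 3-kinase differed from each other. Pik3r1, which encodes the regulatory subunit that binds middle T, had 13 windows within 50 kb and 10 inside the gene. Its 724-codon transcript, the length of the p85 alpha form, had windows at 13 and 821 bp from its start, from a single called peak with 2 summits. The 454-codon transcript, the length of the p55 alpha form, had its nearest window 2234 bp before the start and therefore no promoter window. The same window, at −490 bp, lay before the start of a short transcript of 4 exons, which lies between the starts of the 724-codon and 454-codon transcripts. The second intron of the 724-codon transcript, 47583 bp long, held 6 windows. Pik3ca, which encodes the catalytic p110 alpha subunit, had 4 windows within 50 kb, 2 of them inside the gene. Its promoter window was centred 673 bp before the first start region, and the second start region, 38480 bp downstream, had its nearest window 12242 bp away.

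Plcg1, which encodes the phospholipase that makes diacylglycerol and inositol trisphosphate, had 8 windows within 50 kb and 5 inside the gene. The promoter window at −46 bp (chr2:160556741-160557240) had the highest GC content of all promoter windows of the 10 genes, 75%. Of the windows farther along, 3 lay in its second intron, and the last 4 were also within Zhx3, a gene that overlaps Plcg1. Akt1, the kinase recruited to membranes by the product of phosphoinositide 3-kinase, had 13 windows within 50 kb but only 1 inside the gene, the promoter window chr12:113912567-113913066. Its other 12 windows were outside the gene, 4 of them within 1 kb of start sites of other genes, namely Adssl1, Siva1, Zbtb42 and AW555464. Counts within 50 kb at Akt1 and Shc1 thus include promoters of neighbours.

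**Figure D2:**
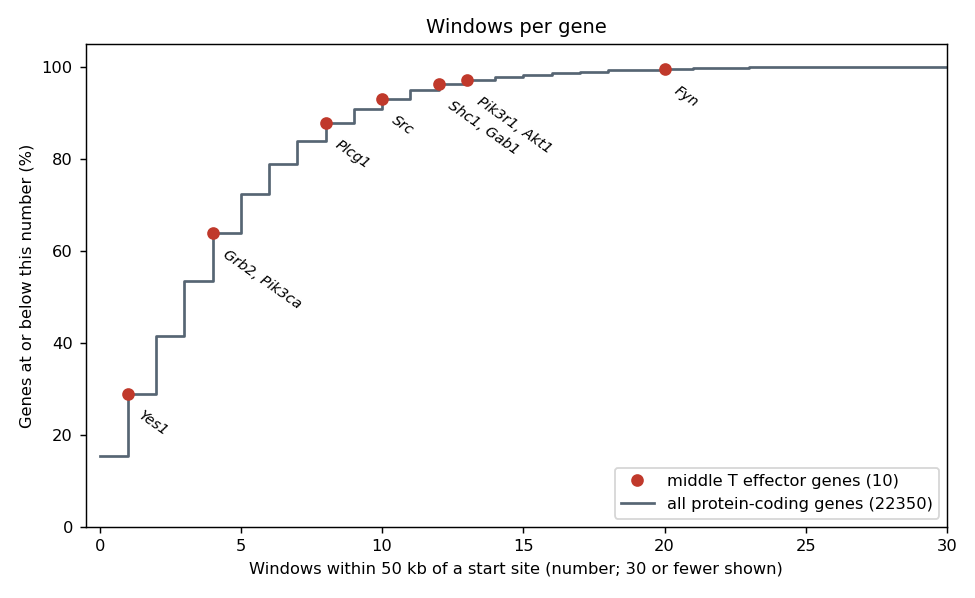
Windows counted per gene up to 50 kb from its start sites (x axis, number) against the percentage of genes at or below that number (y axis), for the middle T effector genes (red points) and all 22350 protein-coding genes (grey line). Fyn with 20 windows lies at 99.6%, Grb2 and Pik3ca with 4 at 63.9%, and Yes1 with 1 at 28.9%.

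Counts inside the gene were set against genes of like length, since longer genes can hold more windows. Among all genes of the same length class, of 10 classes, Pik3r1 reached the 99.1 percentile, Src 98.1, Fyn 97.2, Plcg1 96.4, Gab1 95.8 and Shc1 95.3. Grb2 (80), Akt1 (78.1), Pik3ca (68) and Yes1 (25.1) were lower. Yes1, with 0 windows in 75825 bp, was below the median of 2 for its class. Genes tied at a count share its percentile, and the share of all genes that stand as high in their class was not computed. Shc1 reached 95.3 with 2 windows, both promoter windows, in a class where 45.3% of genes had at least 1 window inside the gene. The class of Fyn and Gab1 is wide, from 105575 to 4434882 bp, and Gab1 is on chromosome 8, where more called peaks were kept.

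Taken by start region, in which start sites within 1 kb of each other are counted together, 13 of the 31 start regions of these genes had a window within 1 kb (41.9%), against 27.1% of start regions of all protein-coding genes. No interval was computed for the 41.9%, since start regions of the same gene are not independent. Whether it differs from 27.1%, or how far CpG content accounts for it, was not tested. Of the 8 genes with several start regions, only Grb2 had a window at every one. Windows near the 1 kb limit were those of Pik3ca (−673), Pik3r1 (821) and Gab1 (832 bp) inside it, and of Src (−1014 and 1663), Plcg1 (1673) and Fyn (1819 bp) outside it. At 50 kb, the outermost windows counted were at 48776 bp for Fyn, 48592 bp for Src and −47089 bp for Akt1, and the nearest not counted were at −50796 bp for Gab1 and 53650 bp for Pik3ca.

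By location, 46 windows lay in introns of the genes, 17 within 1 kb of their start sites, 1 in an exon, 9 within 1 kb of a start site of another gene only, and 28 elsewhere outside. The 17 promoter windows had a median GC content of 61.6% and a median of 32 CpG, against 59.6% and 31 for all promoter windows. They ranged from 39.4% to 75% GC and from 1 to 62 CpG. The 75 windows over 1 kb from any start site had a median of 48.8% GC and 6 CpG, against 48.2% and 6 for all such windows. In both classes the windows of these genes were thus close to the windows of the whole list.

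**Figure D3:**
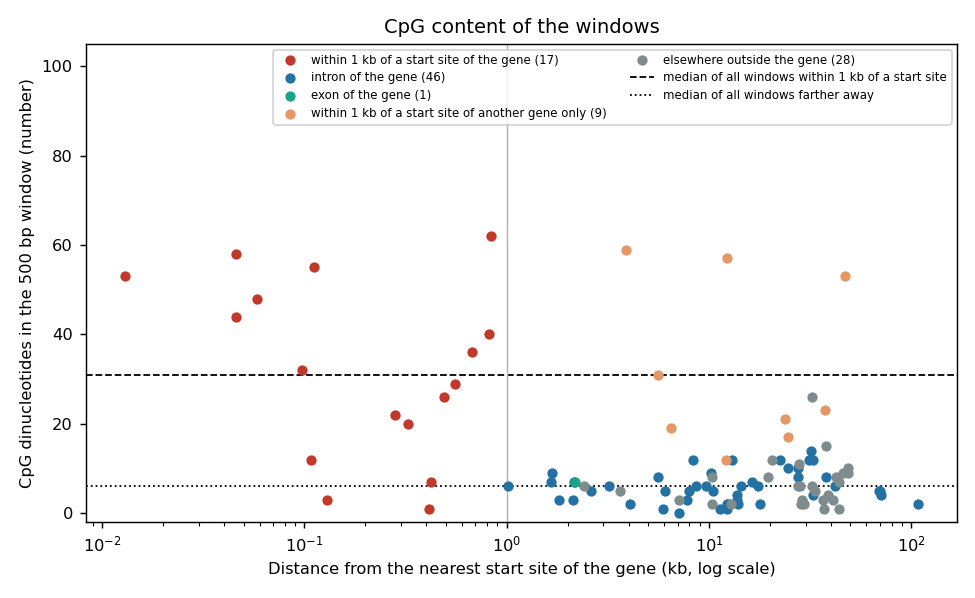
CpG dinucleotides per window (y axis) against the distance from the nearest start site of the gene (kb, log scale) for the assigned windows, colored by location, with the median of all promoter windows (31, dashed line) and of all windows farther away (6, dotted line). Promoter windows span 1 to 62 CpG, and those near start sites of other genes stand above most other distant windows.

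Words known as binding sequences of transcription factors were searched on both strands. The SP word occurred in 13 of the 17 promoter windows (76.5%, interval 50.1% to 93.2%), against 64.3% of all promoter windows. It was seen at 4 positions in the Pik3r1 run and at 4 in the first Grb2 run above. The NFY word occurred in 8 (47.1%), the same share as in all promoter windows (47.1%). CCGGAAG, a word of Ets factors, was in 4 (23.5%) against 18.2%. TGACGTCA, a word of CREB factors, was in 0 of the 17, against 3.4% of all, and the NRF1 word was in 1, the first Grb2 window, against 3.16%. Of the 75 windows away from start sites, 11 held the AP-1 word (14.7%, interval 7.56% to 24.7%), against 15.6% of all such windows. Fyn had 4 of them, Gab1 and Pik3r1 2 each, and Src, Shc1 and Akt1 1 each, while those of Yes1, Grb2, Pik3ca and Plcg1 had 0. TGTGGT, a word of RUNX factors, was in 42.7% against 37.4%, and AGATAA, a word of the luminal and lymphoid factor encoded by Gata3, in 28% against 20.4%. ACGTG or GCGTG, the core bound by hypoxia-inducible factors, was in 32% against 43.5% away from start sites. CACGTG, the E-box, contains ACGTG and was counted for both words, and GAGGAAGT, a word of PU.1, shares GGAAG with CCGGAAG. For each of 15 words in either class, the share in all windows lay inside the interval of the windows of these genes.

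Other genes of these pathways were looked at in 10 lists, without the genes above. Of their 90 genes, 72 had a promoter window (80%, interval 70.2% to 87.7%), and the median number of windows within 50 kb was 6. All 10 genes of the RAS-ERK list, from the RAS proteins to the ERK kinases, had a promoter window, among them Map2k2 with 13 windows within 50 kb and Hras, on chromosome 7, with 10. So did all 5 genes of PP2A subunits, the phosphatase that middle T binds, but with 2 to 7 windows each. Of the regulators and substrates of SRC, 11 of 12 had one, and Pag1, an adaptor for the inhibitory kinase CSK, did not. Of the class I phosphoinositide 3-kinase list, which also holds an adaptor gene, 7 of 8 had one, all but Pik3r5. Pik3r2, another regulatory subunit gene, on chromosome 8, had 22 windows within 50 kb but only 2 inside the gene. The lists of the PLC gamma branch (6 of 7, all but the inositol trisphosphate receptor gene Itpr3) and of AKT and mTOR (10 of 13, without Gsk3a, Rictor and Rptor) were also above 43.5%.

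The other SRC-family kinases had the lowest share of the 10 lists, 4 of 8 (50%, interval 15.7% to 84.3%). Blk, Ptk6 and Srms were among those with no promoter window. Each of these had 5 or 6 windows within 50 kb, but Ptk6 and Srms had 0 inside the gene and Blk had 2. Fgr, a kinase of myeloid cells, had 14 windows within 50 kb and 3 inside the gene, Lyn had 9 and 8, and both had promoter windows. Adaptors and RAS exchange factors had one in 9 of 13 cases, with Grap, Grap2, Shc2 and Shc3 lacking one. Phosphatases acting on phosphoinositides or AKT had one in 5 of 7 cases, without Inpp4a and Inppl1, and Inpp4b on chromosome 8 had 16 windows within 50 kb. Of the 14-3-3 genes, whose products bind phosphoserine and also bind middle T, 5 of 7 had one, while Ywhab and Ywhae had 0 windows within 50 kb. The intervals of the 10 lists all overlap one another, and differences between lists were not tested.

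**Figure D4:**
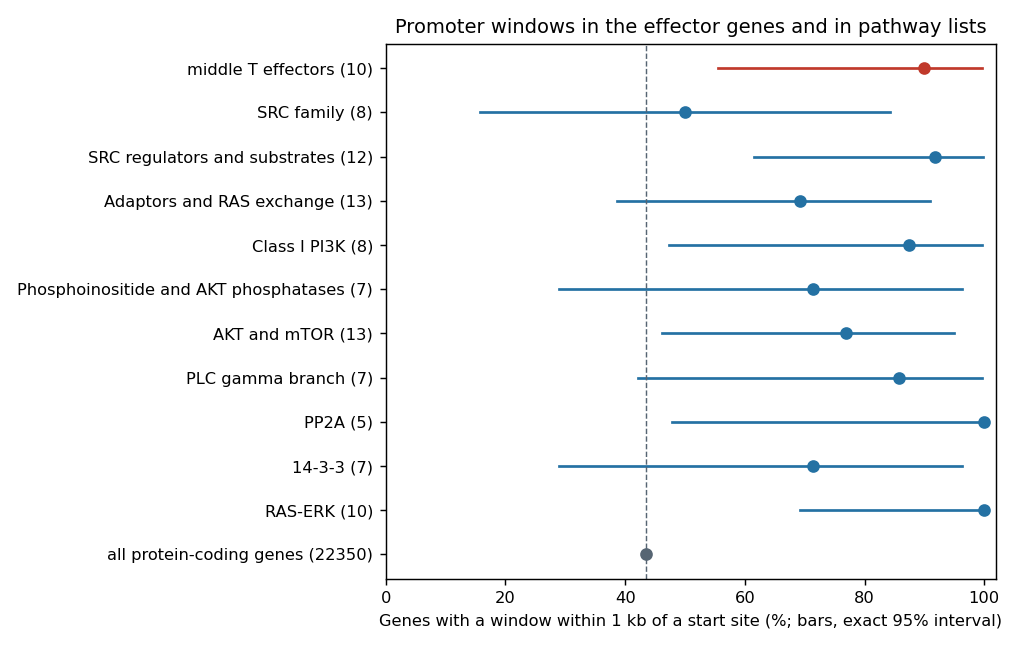
Percentage of genes with a promoter window (x axis) in the middle T effector genes (red), in 10 pathway lists (blue) and in all protein-coding genes (grey, with the dashed line at 43.5%), with exact 95% intervals as bars and the number of genes in parentheses. The effector genes stand at 90%, the other SRC-family kinases at 50%, and the PP2A and RAS-ERK lists at 100%.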

How the data were processed

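Pi-ATAC was run on PyMT breast tumor cells in 96 wells on each of 4 plates, and all wells form 1 group. The deposited values are positions of windows. The authors aligned adapter-trimmed reads by Bowtie2 2.1.0 (mm9), used Picard 1.79 to take out duplicates, and dropped reads of low quality or from mitochondria. MACS2 then gave summits of the aggregated cells (q threshold 0.05). These were widened to 500 bp, and the 50000 with the lowest q were kept. For MACS2 no version is stated in the material used here. Other tool versions are from the submitters' processing notes. Peak names carry a running number, from which the share of called peaks kept was taken.

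Windows were placed by their centre with the GENCODE vM1 annotation and the NCBIM37 sequence, in Python 3.11.15 with numpy 2.4.6, scipy 1.17.1 and matplotlib 3.10.9. A window counted for a gene if within 50 kb of a start site or in the gene body, and as a promoter window within 1 kb. Start sites within 1 kb of each other formed 1 start region. Percentiles are the share of protein-coding genes at or below a value, and intervals are Clopper-Pearson. Of the listed pathway genes, 89 were matched by symbol and Hras by an older symbol. The members and lists were chosen with earlier results of these data known. Named are the 10 genes, genes with a start site near a counted window, and of each list up to 3 genes with most windows and up to 5 without a promoter window, except that some listed genes are not reported by name here. The procedures were tested on simulated data. Alternatives changed distances, transcripts, overlapping windows, placement and chromosomes. With no counts, no test across samples could be made.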

Additional observations from a re-analysis of the deposited data

How the results depend on the processing

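Of 27 alternative values, 25 stayed within 1.5 times the main count or, for the AP-1 share, within its 95% interval. The exceptions were the number of windows within 50 kb, which was 42 with a reach of 10 kb in place of 97, and the share of windows away from start sites with the AP-1 word, which was 4% when the central 200 bp alone were searched, against 14.7% in whole windows. Over all such windows the central share was 7.92%. Searching fewer bases lowers both shares by construction, but the unequal size of the 2 falls was not tested, and the 4% rests on 3 of 75 windows. With a promoter distance of 500 bp, 7 of the 10 genes kept a promoter window, Src and Pik3ca being the further genes without one, against 40.1% of all genes. With 2 kb, 9 genes had one, against 47%. The runs with the start of the longest coding transcript alone (7 of 10, without Src, Shc1 and Yes1, against 39.5%) and without chromosomes 7, 8, 9 and X (8 of 9, against 42.8%) were chosen after seeing the data. No paired analysis was possible because all wells form 1 group in 1 pooled list. Depth is unknown, so a missing window says only that it was not among those kept.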
